A study of Mus musculus with 4 samples.

Results

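The nuclei described here were those of mouse HSPCs (hematopoietic stem and progenitor cells) with abundant RNA of the early neutrophil granule proteins. They were chosen by the summed unique molecular identifiers (UMIs, counted RNA molecules) of Mpo, Elane, Ctsg and Prtn3, of which a member needed 8 or more. A member also had a sum of 4 or fewer UMIs of S100a8, S100a9, Ltf, Ngp, Camp and Lcn2. This set is called the late granule genes here, as a label for the set and not for each gene. Of 13619 nuclei with at least 200 detected genes and 1000 to 50000 ATAC counts in peaks, 1310 were members, and the matrix held 18961 barcodes in all. The working label was granulocyte-monocyte progenitors (GMPs). They are called granule protein-high nuclei below, since Mpo encodes a peroxidase rather than a protease and some GMP markers were not raised in them.

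The HSPCs were sorted as lineage-negative, cKit-positive (Lin-cKit+) bone marrow cells of male C57BL/6 wild-type mice of 8 weeks. The lineage antibodies included Gr-1 and CD11b, which remove maturing neutrophils and monocytes. The mice either carried silk ligatures on their second molars for 14 days (Lig), a model of periodontitis, or were left untreated (Ctrl), and no other allele or agent was given in the labels. RNA and open chromatin (ATAC, transposase cuts in accessible DNA) were read from the same nuclei, with 1 RNA and 1 ATAC sample for each treatment. Marrow of several mice was pooled for each treatment, so spread between animals cannot be read. All nuclei were deposited in 1 matrix whose barcodes end in 1 or 2. No label ties either suffix to Ctrl or Lig, so the suffixes are called library 1 and library 2, belong to no group, and are given side by side as separate measurements without a test. Intervals are exact 95% intervals that cover counting error only. A difference between the libraries cannot be told apart from one of depth, free RNA or treatment.

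Neutrophils are made from GMPs through promyelocytes, which fill azurophil (primary) granules with myeloperoxidase and the serine proteases neutrophil elastase, cathepsin G and proteinase 3. The genes of the secondary and tertiary granules, such as Ltf and Camp, come on later, when the primary granule genes are switched off. Factors of the C/EBP family and PU.1 are known to act on the primary granule genes. Secretory proteins of this kind are folded in the endoplasmic reticulum by chaperones such as calreticulin and BiP.

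The 4 genes that chose the nuclei are shown by the 250 bases before their start, because accessibility at these loci is the readout that the choice did not use. The start is the one that the matrix lists, which is also that of a GENCODE vM21 transcript, and none of the windows holds an annotated exon. The Prtn3 window lies within the annotated span of the gene. The sequences come from the RefSeq genome of build GRCm38.p6 and are written 5′ to 3′ on the strand of the gene. Capitals mark matches to 6 consensus motifs on either strand, namely TTNNGCAAT for C/EBP, GAGGAAGT for PU.1, TGTGGTTA for RUNX, CAACNGCC for MYB, AGATAAGA for GATA and CCCNNGGGA for EBF.
Mpo, chr11:87793331-87793580, plus strand: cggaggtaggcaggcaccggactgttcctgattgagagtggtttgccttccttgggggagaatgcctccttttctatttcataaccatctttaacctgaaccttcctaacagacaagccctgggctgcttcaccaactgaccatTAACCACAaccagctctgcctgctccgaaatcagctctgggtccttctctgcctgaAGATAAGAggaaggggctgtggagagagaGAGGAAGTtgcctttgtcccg
Elane, chr10:79885997-79886246, plus strand: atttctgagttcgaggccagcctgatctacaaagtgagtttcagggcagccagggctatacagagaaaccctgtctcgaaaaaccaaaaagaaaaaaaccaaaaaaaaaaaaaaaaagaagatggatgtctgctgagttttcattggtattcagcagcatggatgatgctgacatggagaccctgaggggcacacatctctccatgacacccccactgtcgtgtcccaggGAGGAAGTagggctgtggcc
Prtn3, chr10:79879364-79879613, plus strand: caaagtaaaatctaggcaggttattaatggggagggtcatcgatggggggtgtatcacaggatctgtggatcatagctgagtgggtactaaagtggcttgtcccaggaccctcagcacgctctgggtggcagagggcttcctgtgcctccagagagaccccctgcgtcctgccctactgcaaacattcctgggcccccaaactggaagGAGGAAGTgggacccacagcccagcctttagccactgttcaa
Ctsg, chr14:56102575-56102824, minus strand: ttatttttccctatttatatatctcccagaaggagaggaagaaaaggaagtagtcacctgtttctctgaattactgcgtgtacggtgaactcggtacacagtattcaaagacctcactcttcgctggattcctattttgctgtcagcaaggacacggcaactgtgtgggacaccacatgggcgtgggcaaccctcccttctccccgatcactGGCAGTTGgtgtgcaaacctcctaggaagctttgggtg
The PU.1 letters GAGGAAGT stood in the Mpo, Elane and Prtn3 windows, 14, 13 and 35 bases before the start as counted from the last base of the match. They stood in 2.44% of 32851 windows of the same length before the RefSeq gene starts. The Mpo window also held the RUNX letters on the opposite strand and the GATA letters, which stood in 0.642% and 0.898% of those windows. The MYB letters stood in the Ctsg window on the opposite strand, and in 3.12% of those windows. The C/EBP and EBF letters had no match in the windows shown, and stood in 1.93% and 5.6% of the RefSeq windows. A match is a description of letters, not of a bound factor.

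In GENCODE vM21 the Mpo gene, a protein-coding gene like the others, spans chr11:87793581-87804413. Prtn3 at chr10:79874476-79883174 and Elane at chr10:79886247-79888215 are neighbours on the same strand, and Ctsg lies at chr14:56099881-56102574 on the minus strand. Within 1 kb of the starts that the matrix lists, Mpo and Ctsg each had 1 peak, Elane had 2 and Prtn3 had 0. The matrix start of Prtn3 is not the outer end of its GENCODE span, which has a peak of its own.

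Library 1 held 467 members among 5905 kept nuclei (7.91%, 7.23 to 8.63) and library 2 held 843 among 7714 (10.9%, 10.2 to 11.6). The limit on late granule genes took out only 3 nuclei in library 1 and 32 in library 2 that otherwise met the threshold. The sum of the 4 genes ran on without a gap at the threshold. In library 1, 192, 165, 121 and 107 nuclei had sums of 6, 7, 8 and 9 with the late granule limit met, and in library 2 the numbers were 337, 216, 149 and 133. The members are therefore a range of a continuous measure, and whether they form a cluster was not examined. Of them, 71.5% of those in library 1 and 55.8% of those in library 2 had sums of 8 to 11. Sums of 20 or more were found in 15 members of library 1 and 131 of library 2. No doublets were removed. Of the 146 barcode sequences found in both libraries, 2 belonged to members in both.

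**Figure D1:**
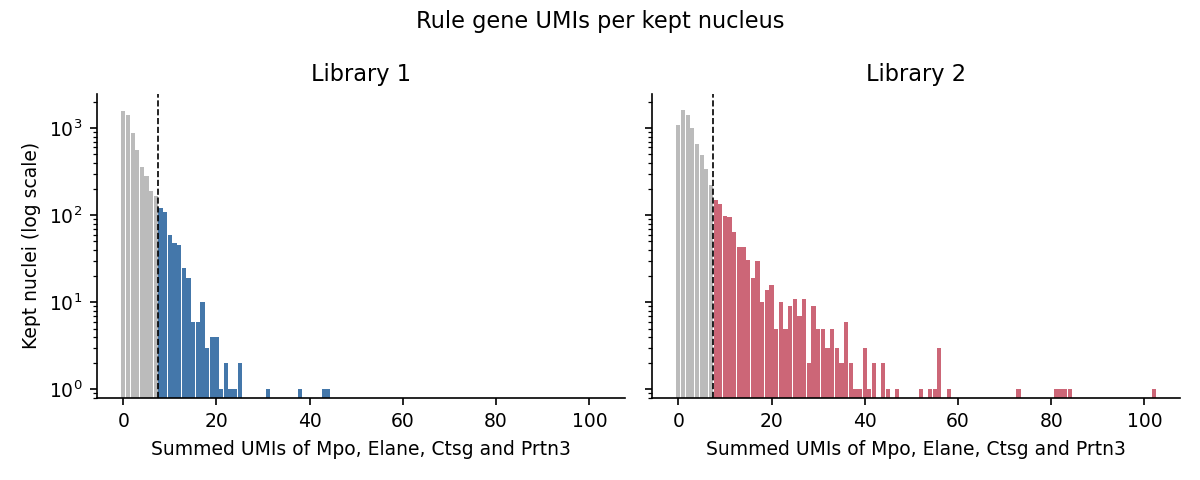
Summed UMIs of Mpo, Elane, Ctsg and Prtn3 per kept nucleus (x axis) against the number of nuclei on a log scale (y axis) in each library, coloured from the threshold of 8 (dashed line) upward, including the 3 and 32 nuclei taken out by the late granule limit. The counts fall without a gap at the threshold and reach higher sums in library 2.

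The members were deeper than the other kept nuclei, as a threshold on raw UMIs favours. Their median was 2130 UMIs, 755 genes and 25491 ATAC counts in library 1, against 1602, 627 and 19111 in the others. In library 2 it was 1877, 486 and 21947 against 1475, 402 and 15543. After every nucleus with 1000 or more UMIs was thinned to 1000, the rule held for 1.56% of nuclei in library 1 and 4.72% in library 2. Levels below are therefore given as CPM, the UMIs of a gene per 1000000 UMIs outside the ribosomal RNA locus genes Gm42418, Gm26917 and AY036118, which took 43.7% and 50.6% of the members' UMIs.

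Mpo, the myeloperoxidase of the azurophil granule, supplied most of the UMIs that chose the nuclei. Its level in members was 5195 CPM (5014 to 5380) in library 1 and 7619 CPM (7434 to 7808) in library 2, against 1130 and 1843 CPM in the other nuclei. It was detected in 466 of 467 and in 843 of 843 members, and made up more than 50% of the sum in 321 and 474 of them. Elane, neutrophil elastase, stood at 1142 and 1943 CPM in members and at 204.3 and 343.2 CPM in the others. Ctsg, cathepsin G, was the gene that differed most between the libraries, at 651.4 CPM (588.4 to 719.4) in members of library 1 and 2105 CPM (2008 to 2205) in those of library 2, with 117 and 243.4 CPM in the others. Prtn3, proteinase 3, stood at 1451 and 2564 CPM in members and 454.4 and 906.3 CPM in the others. These ratios were fixed by the choice of nuclei and are a description.

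All 4 genes were detected together in 30.6% (26.5 to 35) of the members of library 1 and 51.5% (48 to 54.9) of those of library 2, and a single gene supplied the whole sum in 9 members of each library. Nuclei of the B lineage, which should lack these RNAs, were read as a background. B lineage nuclei that met the member rule, 5 and 2 in number, were not among them, which lowers these levels. There Mpo stood at 412.6 and 751.3 CPM, Elane at 110.7 and 214.7, Ctsg at 51.4 and 134.2, and Prtn3 at 266.3 and 590.3, over 642 and 40 nuclei with median depths of 1863.5 and 2000.5 UMIs. With the excluded nuclei put back, Mpo stood at 456.5 and 1009 CPM, Elane at 120.9 and 221.5, Ctsg at 53.3 and 196.9, and Prtn3 at 270.5 and 689.2. After thinning to 1000 UMIs, which left out 10 and 35 shallower members and 97 and 2 B lineage nuclei, Ctsg had a UMI in 30% (25.8 to 34.4) of the members of library 1 and 51.1% (47.6 to 54.6) of those of library 2, against 2.94% and 10.5% of the B lineage nuclei. Without thinning the shares were 53.1% and 73.1% in members and 5.76% and 12.5% in B lineage nuclei.

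The mixture of the 4 RNAs differed between members and background. Prtn3 made up 17.2% (869 UMIs) and 18% (2155 UMIs) of the summed UMIs in members. Its share was 20.8% and 24.5% in the nuclei with sums of 4 to 7, 31.7% and 34.9% in B lineage nuclei (30% and 32.6% with the excluded nuclei put back), and 34.5% and 27.8% in nuclei rich in late granule RNA. Among these 4 groups the share was lowest in the members in both libraries, and the B lineage share of library 2 rested on 22 UMIs. Since the members were chosen on this sum, these shares are a description.

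Accessibility at the rule gene loci was read from ATAC counts, which the choice of nuclei did not use. At the Mpo start, peak chr11:87793209-87794118, members had 26.6 ATAC CPM (counts scaled to all counts in peaks, as for RNA) in library 1 (286 counts) and 19.5 in library 2 (346 counts). The other kept nuclei had 8.46 and 10.2, a fold of 3.14 (2.59 to 3.8) and 1.91 (1.6 to 2.27). Nuclei just below the threshold, with sums of 4 to 7, lay between them at 17.3 and 15.7, and B lineage nuclei had 2.56 in library 1. The 40 B lineage nuclei of library 2 were too few to show a level at single starts.

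The Ctsg start, peak chr14:56102091-56102928, gave 25.1 and 23.6 CPM in members and 9.49 and 12.9 in the others, a fold of 2.65 (2.17 to 3.2) and 1.83 (1.56 to 2.13). In B lineage nuclei it stood at 0.881 in library 1, and library 2 held too few such nuclei to show a level. The strongest peak of the locus had its centre at -3013 bases from the start, at chr14:56105145-56106028 between genes, with 38.3 and 35.1 CPM in members against 16.9 and 21 in the others. A further peak, 17257 bases past the Ctsg start and over the neighbouring granule protease gene Mcpt8, gave folds of 2.69 (1.73 to 4.05) and 2.29 (1.67 to 3.11), on 60 and 118 counts, and was not past 2-fold in library 2 once the pseudocount was added.

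The 2 peaks of the Elane start together gave 28.5 and 30.2 CPM in members against 12.6 and 15.6, a fold of 2.27 (1.9 to 2.71) and 1.93 (1.68 to 2.22). Of these, the peak over the start itself, chr10:79885847-79886696, was past 2-fold in both libraries, at 2.35 (1.79 to 3.05) and 2.18 (1.77 to 2.68). Prtn3 had no peak within 1 kb of the start that the matrix lists for it. Its nearest peak, centred at -1665 bases from the start and in an intron of the annotated gene (chr10:79877565-79878333), differed less, at 24.7 and 26.9 CPM against 16.7 and 20.4, a fold of 1.48 (1.23 to 1.78) and 1.32 (1.15 to 1.52). The peak over the outer end of the annotated gene, chr10:79874105-79874997, which also covers an exon of Plppr3, had 9.95 and 11.1 CPM in members against 11.1 and 12.5, a fold of 0.896 (0.664 to 1.19) and 0.888 (0.712 to 1.1). In nuclei with sums of 4 to 7 the peak at -1665 bases already stood at 24.9 and 25.4, at or near the level of the members.

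Mpo had further accessible peaks around it. The peak centred at -3299 bases from the start, chr11:87789834-87790730, gave folds of 2.27 (1.83 to 2.79) and 2.05 (1.75 to 2.39), and was not past 2-fold in library 2 once the pseudocount was added. The peak 6748 bases inside the gene, over an exon, was past 2-fold in both libraries at 3.11 (2.19 to 4.35) and 2.47 (1.85 to 3.26). Within 50 kb of the 4 starts lay 65 peaks, of which 2 were at least 2-fold more open in members in both libraries and none 2-fold less open. The background was 0.222% of the 172394 peaks counted. Of the 65, 36 were above a ratio of 1 in both libraries, against 59257 of all counted peaks, and their median log2 ratio was 0.26 and 0.12 against 0.03 and 0.01 for all peaks. The loci differed, with 19 of 25 peaks above 1 in both at Mpo and 8 of 11 at Ctsg. At Elane and Prtn3, which share peaks, the numbers were 9 of 26 and 8 of 27. The medians were 0.26 and 0.24 at Mpo, 0.59 and 0.48 at Ctsg, -0.04 and 0.07 at Elane, and -0.05 and 0.05 at Prtn3.

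Accessibility was higher in nuclei with more rule gene UMIs up to sums of 8 to 11, and at most little higher from there to sums of 12 to 19. At the Mpo start it went from 3.54 and 5.48 CPM in nuclei without a UMI to 7.36 and 8.45 with 1 to 3 UMIs and 17.3 and 15.7 with 4 to 7. Members with 8 to 11 UMIs had 26.2 and 18.9, and those with 12 to 19 had 26.3 and 20.7. RNA over the same bins kept climbing, from 4634 and 5760 CPM of Mpo at 8 to 11 UMIs to 7385 and 13218 CPM at 20 or more, as the binning by these UMIs requires. With 20 or more the start had 39.6 CPM in library 1, where that bin held only 15 nuclei, and 19.4 in library 2.

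**Figure D2:**
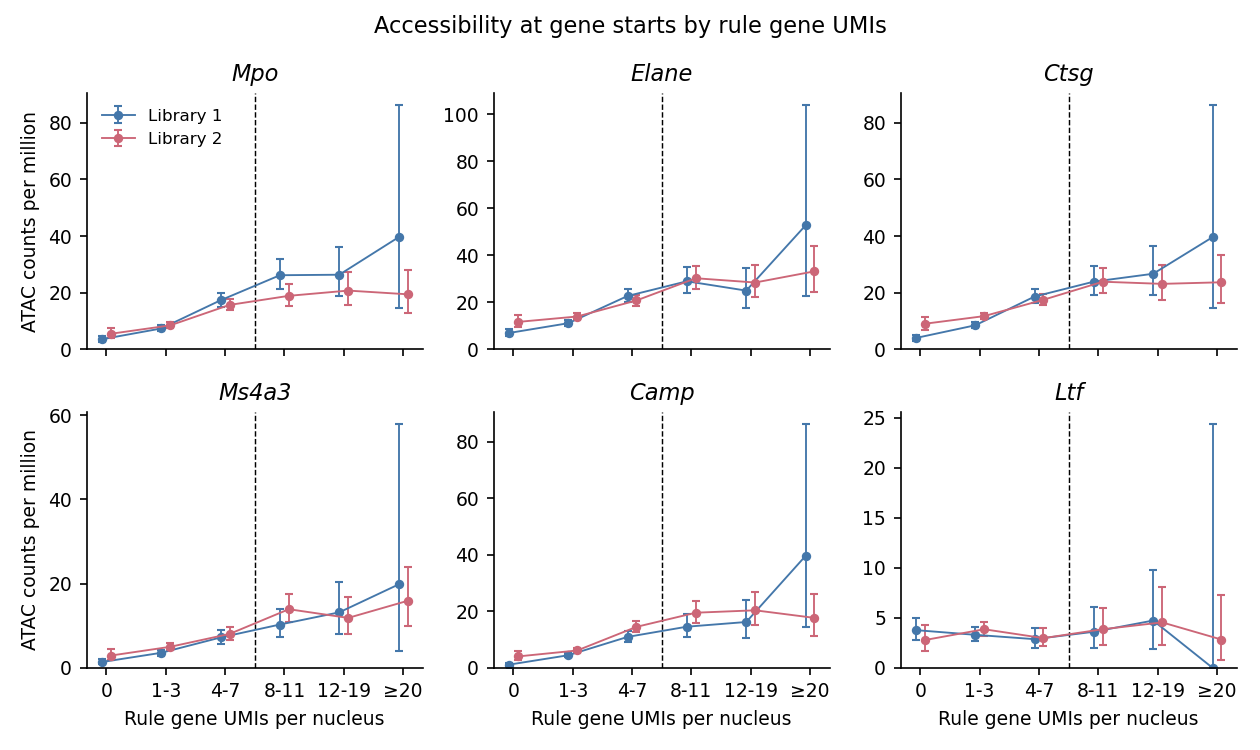
ATAC CPM in peaks within 1 kb of 6 gene starts (y axes) against the rule gene UMIs of the nucleus (x axes), for nuclei with at most 4 late granule UMIs in library 1 and library 2, with exact 95% intervals and a dashed line at the member threshold. Mpo, Elane, Ctsg, Ms4a3 and Camp are more accessible in members than in nuclei without a UMI, while Ltf stays between 2.77 and 4.73 up to the bin of 12 to 19.

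The late granule genes, low in the members by the rule, were not alike in accessibility. Camp, the cathelicidin of secondary granules, had 15.7 and 19.4 CPM at its start in members against 5.69 and 9.12 in the others, a fold of 2.76 (2.14 to 3.52) and 2.13 (1.78 to 2.54). Its RNA stood at 26.7 and 67.8 CPM in the members, on 16 and 57 UMIs, and at 4076 and 3297 CPM in nuclei rich in late granule RNA. The start of S100a8, a subunit of calprotectin, gave folds of 2.16 (1.67 to 2.75) and 1.6 (1.32 to 1.93). Folds were 1.7 (1.05 to 2.64) and 1.71 (1.23 to 2.35) at the Ngp start, and 1.68 (1.15 to 2.38) and 1.82 (1.44 to 2.29) at that of Lcn2. At the S100a9 start they were 1.12 (0.636 to 1.86) and 1.8 (1.31 to 2.45). Ltf, lactoferrin, did not differ beyond counting error, at 3.81 and 3.89 against 3.7 and 3.83 CPM, a fold of 1.03 (0.619 to 1.63) and 1.02 (0.687 to 1.46). Nuclei with 8 or more late granule UMIs, 147 and 274 in number, were more open than members at all of these starts, with 41.7 and 32.8 at Camp, 77.9 and 59.1 at S100a8 and 23.1 and 15.4 at Ltf. At the Mpo start those nuclei had 2.01 and 8.28 CPM, below the members.

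Of 22 GMP markers that the rule did not use, 3 were at least 2-fold higher in members in both libraries and 1 was lower, against a background of 0.397% higher and 3.66% lower among the 10330 genes counted. The median log2 ratio of the markers was 0.62 in library 1 and 0.23 in library 2, against -0.11 and -0.14 over all genes counted. The log2 ratio is that of members over other kept nuclei with 1 CPM added to each. RNA of the same nuclei chose the members, so these counts are given as a description.

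Prss57, a serine protease of azurophil granules whose gene lies in the Prtn3 and Elane region, stood at 53.4 CPM (32 UMIs) in members of library 1 and at 99.96 CPM (84 UMIs) in those of library 2, against 13.1 and 30.4 CPM. That was 4.08-fold (2.59 to 6.29) and 3.29-fold (2.49 to 4.32). Nkg7, a protein of cytotoxic and granulocyte granules, was 2.85-fold (1.88 to 4.23) and 3.16-fold (2.41 to 4.12) higher. Clec12a, an inhibitory lectin receptor of myeloid cells, stood at 240.5 and 277.3 CPM against 113.9 and 112.5. Members exceeded the other nuclei in both libraries for each of these 3 genes.

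Ms4a3, a marker of the GMP and early neutrophil stage, did not pass 2-fold in library 2, at 167 and 328.4 CPM against 62.7 and 174.5, a fold of 2.67 (2.11 to 3.34) and 1.88 (1.64 to 2.16). Its start was 2.78-fold (2.06 to 3.71) and 2.28-fold (1.84 to 2.81) more accessible. Nuclei rich in late granule RNA were more open there than members, at 18.6 and 16.3 against 11.3 and 13.6 ATAC CPM. Fcgr3, a part of the CD16/32 antigen used to sort GMPs, had folds of 1.99 (1.1 to 3.41) and 2.8 (2.01 to 3.86). Cd34, also a sorting antigen of GMPs, ran the other way, at 93.5 and 73.8 CPM against 119.4 and 133.7, a fold of 0.783 (0.585 to 1.03) and 0.552 (0.418 to 0.716). Kit, the antigen of the sort, had folds of 1.2 (1.02 to 1.41) and 0.83 (0.675 to 1.01). Cd33, a sialic acid receptor, was the marker that was lower, but on 2 UMIs in members of each library.

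**Figure D3:**
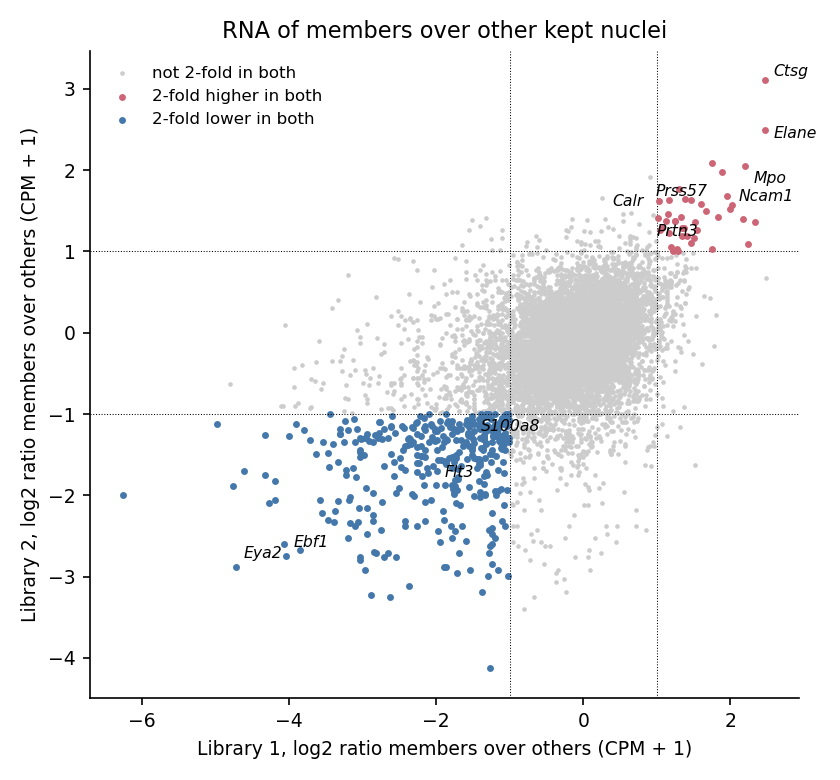
Log2 ratio of CPM + 1 in members over other kept nuclei in library 1 (x axis) and library 2 (y axis) for the 10330 genes counted, each point a gene, with lines at 2-fold. The 41 genes higher in both libraries include the 4 rule genes, and 378 genes were lower, with the B lineage factor Ebf1 at -4.04 and -2.74.

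Chaperones and folding enzymes of the endoplasmic reticulum mostly had higher levels in members. Of 15 genes, 14 had ratios above 1 in both libraries, as did 2095 of all 10330 genes counted, and 2 were past 2-fold in both, beside 0.397% of all genes counted. The median log2 ratio was 0.64 and 0.85. Calr, calreticulin, stood at 691.5 CPM (626.5 to 761.4) and 1169 CPM (1097 to 1244) in members against 340.7 and 439.3 CPM. Sdf2l1, a small partner of the chaperone BiP, was 2.11-fold (1.19 to 3.57) and 3.17-fold (2.23 to 4.47) higher. Hspa5, which encodes BiP itself, had folds of 1.56 (1.45 to 1.69) and 2.12 (2.02 to 2.23), and Hyou1, a nucleotide exchange factor for BiP, 1.87 (1.44 to 2.39) and 2.13 (1.76 to 2.56), short of 2-fold in library 1. Xbp1, a transcription factor of the unfolded protein response, was the exception in direction, with log2 ratios of 0.59 and -0.15. With CPM taken over all genes, 0 of the 15 passed 2-fold in both libraries, although the median stayed at 0.62 and 0.93.

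The chaperone RNAs also differed among the members. Summed over the 15 genes, they stood at 4703 and 6194 CPM in members with 8 to 11 rule gene UMIs, at 4930 and 7817 CPM with 12 to 19, and at 6952 and 12930 CPM with 20 or more. Their sum in nuclei without a rule gene UMI was 2790 and 3645 CPM. Median depth moved with these bins, from 1414 and 1300 UMIs without a rule gene UMI to 3176 and 2123 UMIs in the last, and its part in the trend was not tested. At the starts of Calr and Hspa5 no difference in accessibility between members and others was larger than counting error, with folds of 1.07 (0.981 to 1.17) and 1.06 (0.983 to 1.14), and of 0.933 (0.842 to 1.03) and 1.03 (0.947 to 1.11).

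Of 14 counted genes for azurophil granule content and traffic, 1, Prss57, was past 2-fold in both libraries, beside 0.397% of all genes counted, with a list median of 0.40 and 0.33. Ratios were above 1 in both libraries for 9 of them and below 1 in both for 3, against 2095 and 4604 of the 10330 genes counted. Cd63, a tetraspanin of azurophil granule membranes, stood at 43.4 and 122.6 CPM against 22.8 and 31.8, a fold of 1.91 (1.2 to 2.93) and 3.86 (2.98 to 4.97). Ctsc, the enzyme that activates the granule serine proteases, had log2 ratios of -0.31 and 0.07, and Srgn, the proteoglycan that packs them, 0.36 and 0.69. The granule hydrolases Gusb and Arsb had log2 ratios of 0.46 and 0.65, and of 0.78 and 0.70. Lyz2, lysozyme, was lower in members, with folds of 0.451 (0.272 to 0.706) and 0.582 (0.414 to 0.8). All 6 genes of the respiratory burst oxidase had ratios above 1 in both libraries (2095 of 10330 over all genes), with a median of 0.27 and 0.19, and 0 passed 2-fold.

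Of 15 granulocyte transcription factors 0 passed 2-fold in both libraries in either direction, which at 0.397% higher and 3.66% lower over all genes is not a result about the list. The list median was 0.16 and -0.14. Gfi1, a repressor needed for neutrophil formation, had 25.1 and 28.6 CPM in members against 16.1 and 15.5, on 15 and 24 UMIs. Cebpe, the factor of secondary granule genes, had 6.68 and 16.7 CPM on 4 and 14 UMIs against 5.89 and 9.14, and Cebpa, the factor of the GMP stage, 15 and 11.9 CPM on 9 and 10 UMIs. The interval of the fold spanned 1 in both libraries for Cebpe and Cebpa, so a difference was not detectable at this depth. For Gfi1 the fold was 1.55 (0.832 to 2.71) in library 1 and 1.84 (1.11 to 2.94) in library 2. Their chromatin was measured more deeply. The start of Cebpe gave folds of 1.49 (1.15 to 1.9) and 1.68 (1.41 to 2), that of Cebpa 1.42 (1.25 to 1.6) and 1.14 (1.03 to 1.25), and that of Gfi1 0.931 (0.773 to 1.11) and 1.05 (0.915 to 1.21). Nuclei rich in late granule RNA were more open than members at the Cebpe start, at 41.2 and 26 against 13.9 and 18.4 ATAC CPM. They were less open than members at the starts of Cebpa and Gfi1.

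Genes of the neighbouring monocyte branch differed in direction from each other. Of 13 counted monocyte genes, 0 were higher and 1, the fibronectin gene Fn1, was lower, beside 0.397% and 3.66% of all genes counted. The list median was -0.17 and -0.32 beside -0.11 and -0.14 over all genes. Ratios were below 1 in both libraries for 8 of the 13 and above 1 in both for 1, against 4604 and 2095 of the 10330 genes counted. That one was Ly6c2, a surface antigen of monocytes and their progenitors, which had 531.1 and 733 CPM in members against 247.4 and 420.5, a fold of 2.15 (1.89 to 2.43) and 1.74 (1.59 to 1.91). Irf8, the factor of the monocyte and dendritic branch, had 200.4 and 111.9 CPM against 249.7 and 176.8, a fold of 0.803 (0.66 to 0.968) and 0.632 (0.506 to 0.783), and its start had folds of 0.823 (0.689 to 0.978) and 0.771 (0.665 to 0.891). Accessibility was higher in members at the start of Ly6c2, at 1.65 (1.3 to 2.07) and 1.34 (1.1 to 1.63), and at that of Csf1r, the receptor of the macrophage growth factor, at 1.55 (1.25 to 1.9) and 1.31 (1.11 to 1.54). At the F13a1 start the libraries went opposite ways, at 0.616 (0.411 to 0.891) and 1.36 (1.09 to 1.68). F13a1, a transglutaminase of monocyte progenitors, was highest in the nuclei just below the threshold. It stood at 828.7 CPM (776.4 to 883.5) and 638.4 CPM (597.5 to 681.3) with 4 to 7 rule gene UMIs, against 619.2 and 497.2 CPM with 8 to 11 and 451.6 and 362.9 CPM with 12 to 19. With 20 or more it stood at 698.6 CPM (432.4 to 1068) and 449.1 CPM (348 to 570.3).

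**Figure D4:**
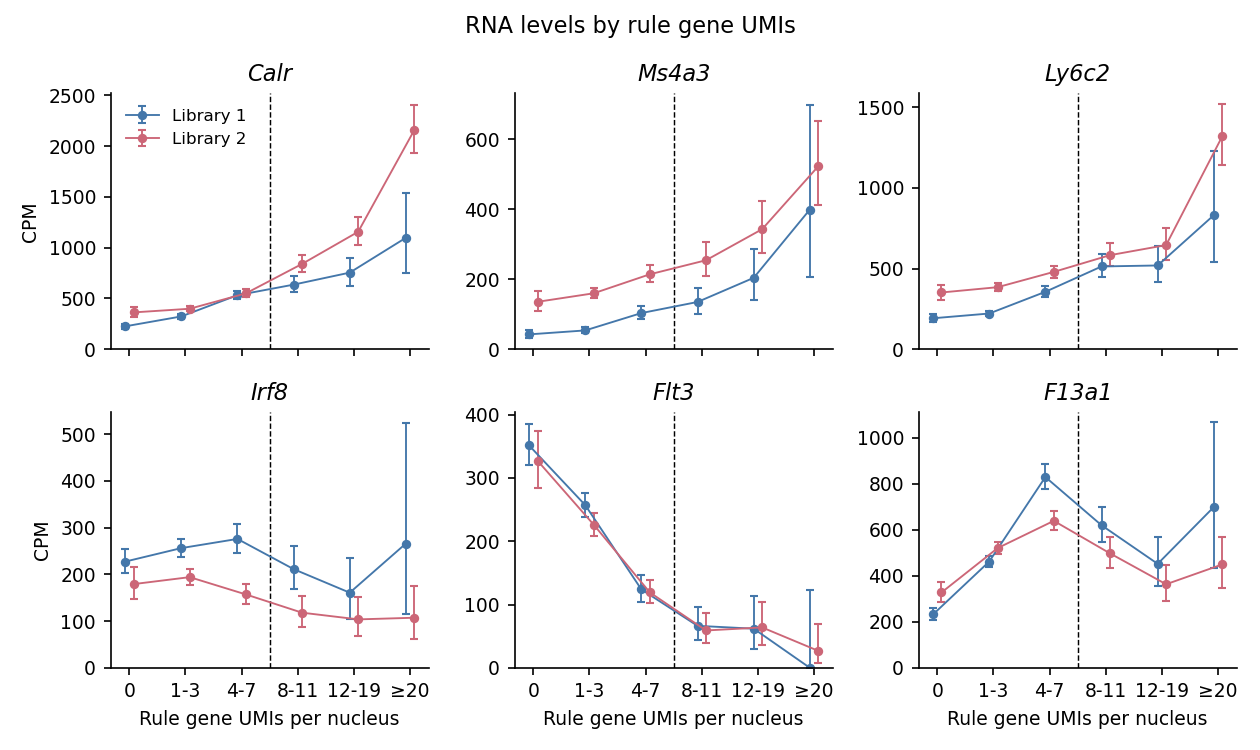
RNA levels in CPM (y axes) of 6 genes that the rule did not use, against the rule gene UMIs of the nucleus (x axes), in library 1 and library 2 with exact 95% intervals and a dashed line at the member threshold. Calr, Ms4a3 and Ly6c2 are higher in the upper bins, Flt3 is lower, and F13a1 has its highest value at 4 to 7 in both libraries.

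Flt3, the cytokine receptor of multipotent and lymphoid-primed progenitors, was lower in members, at 61.8 and 54.7 CPM against 249.5 and 203.9, a fold of 0.248 (0.174 to 0.343) and 0.268 (0.195 to 0.361). It was already at 123.8 and 119.1 CPM in nuclei with sums of 4 to 7. Of 8 counted stem cell markers 2, Meis1 and Ly6a, were lower, beside 3.66% of all genes counted. Meis1, a homeobox factor, stood at 85.2 and 45.2 CPM against 289 and 132.7. Ly6a, the Sca-1 antigen, rested on 1 and 0 UMIs in members, and the interval of its fold in library 1 spanned 1. Of 8 B lineage markers 7 were lower, and Ebf1, the factor of early B cells, had 113.6 and 52.4 CPM in members against 1890 and 355.7 CPM in the others. Markers of other lineages were also below 1 in median ratio, with 2 of 6 erythroid, 2 of 4 megakaryocyte, 2 of 5 basophil and mast cell, 2 of 5 plasmacytoid, 2 of 4 conventional dendritic and 2 of 2 NK and T markers lower. Of these 12 genes, 6 had an interval of the fold that spanned 1 in a library, namely Vwf, Ms4a2, Ly6d, H2-Eb1, Il2rb and Gata3, each on 5 or fewer UMIs in members of either library. The interval spanned 1 in a library for 2 of the 7 B lineage genes. The ratio of a lineage marker depends on how many nuclei of that lineage are among the others, and library 1 held 642 B lineage nuclei against 40 in library 2.

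Late neutrophil markers that the rule did not use differed in direction. The rule limited late granule UMIs in members but not in the others, which held the nuclei rich in them. Lower ratios here may therefore follow from the choice of nuclei and are a description. Ratios were below 1 in both libraries for 7 of the 13 counted and above 1 in both for 1, against 4604 and 2095 of the 10330 genes counted. Of the 13, 4 were lower, namely Cd177, Mmp9, Retnlg and Padi4, beside 3.66% of all genes, and Padi4 rested on 3 and 5 UMIs in members with an interval that spanned 1 in library 1. The haptoglobin gene Hp was higher, beside 0.397% of all genes, at 58.5 and 98.8 CPM against 20.5 and 45.5. Wfdc21 and Pglyrp1, a peptidoglycan recognition protein, had folds below 1 in library 1, where the interval spanned 1, and above 1 in library 2, at 0.517 (0.103 to 1.6) and 1.79 (1.25 to 2.53), and of 0.838 (0.218 to 2.31) and 2.04 (1.32 to 3.07). The Hp start was also more accessible, with folds of 2.04 (1.65 to 2.51) and 1.65 (1.41 to 1.92). Ly6g, which encodes the Gr-1 antigen of mature neutrophils, had 0 UMIs in members of library 1 and 2 in those of library 2. Cell cycle genes had medians of -0.15 and -0.10 for 43 S phase genes and -0.28 and -0.19 for 53 G2/M genes, with 0 past 2-fold. Ratios were below 1 in both libraries for 18 of the 43 S phase and 38 of the 53 G2/M genes, against 4604 of the 10330 genes counted. The 14 ribosome biogenesis genes had medians of -0.03 and -0.12 and 0 past 2-fold. Of 9 counted interferon response genes 0 were higher and 1, Ifit2, was lower on 3 and 2 UMIs with intervals that spanned 1, beside 0.397% and 3.66% of all genes counted. Their median was -0.42 and -0.55, with 7 of the 9 below 1 in both libraries and 1 above. Of 9 counted growth factor receptors only Flt3 passed 2-fold, and it was lower, beside 3.66% of all genes counted. Of 4 counted inhibitors of serine proteases 0 passed, with a median of -0.06 and -0.16, and 2 were above and 2 below 1 in both libraries. Slpi, an inhibitor of elastase and cathepsin G, had log2 ratios of 1.02 and 0.80.

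Outside the lists, the genes with the largest ratios in the weaker library were named by rank. Ncam1, a neural cell adhesion molecule, led with 102 CPM (61 UMIs) and 69 CPM (58 UMIs) in members against 24.7 and 23.4 CPM. B4galt6, a galactosyltransferase of glycolipid synthesis, had 111.9 and 142.8 CPM against 30.8 and 52.5, and Plod3, a lysyl hydroxylase of the endoplasmic reticulum, 118.6 and 123.8 CPM against 40.8 and 47.7. Lman1, a cargo receptor from the endoplasmic reticulum to the Golgi, was 2.22-fold (1.59 to 3.04) and 2.64-fold (2.04 to 3.38) higher, and Alas1, the first enzyme of heme synthesis, 3.42-fold (2.78 to 4.18) and 2.06-fold (1.7 to 2.48). Chd7, a chromatin remodeler, Ampd2, an AMP deaminase, and Tfec, a transcription factor of the MITF family, were past 2-fold in both libraries as well. Hk3, Slc22a4, Tmx4 and Glis3 ranked among the 15 but fell short of 2-fold in library 2 or in both.

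Among the lowest ratios were those of Eya2, with 0 and 1 UMIs in members, and of Ebf1, 2610307P16Rik, St3gal6, Cecr2, Cplx2, Lef1, Gimap6 and Cd177, of which Ebf1 and Cd177 are also on the marker lists. Cplx2 stood at 51.8 and 15.5 CPM in members against 271.7 and 141.1 CPM in the others. Lef1, a factor of the Wnt pathway and of lymphoid progenitors, had 20 and 8.33 CPM against 219 and 45.9.

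Accessibility at the starts of the genes with higher RNA was mostly, but slightly, higher. Of 37 genes higher in members besides the rule genes, 36 had a counted promoter peak, of which 21 were above a ratio of 1 in both libraries and 8 below it, with a median log2 ratio of 0.15 and 0.19. Over the 10171 genes with one, 1534 were above in both and the median was -0.10 and -0.08. Of the 36 promoters 1 (2.78%) was at least 2-fold more open in both libraries, against 4 of all 10171 (0.0393%). It was that of Olr1, a scavenger receptor named after its values were seen, with log2 ratios of 1.31 and 1.05. For Ncam1 the fold was 1.96 (1.58 to 2.41) and 1.63 (1.38 to 1.91), whereas for Plod3 it was 0.928 (0.796 to 1.08) and 0.918 (0.809 to 1.04). Nuclei rich in late granule RNA were more open than members at the Ncam1 start, at 44.8 and 37.7 against 19.9 and 21.3 ATAC CPM. A peak that was 2-fold more open in both libraries lay within 100 kb of the start of 6 of the 37 genes (16.2%), and of 5.91% of all genes counted. The 6 included Prss57, whose gene lies in the region of the rule genes Prtn3 and Elane, so peaks there may be shared with them.

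Across the genome 383 peaks were at least 2-fold more open in members in both libraries and 517 were less open, 0.222% and 0.3% of the 172394 counted. Of the more open peaks 14.1% lay within 1 kb of a gene start, as did 13.9% of the less open and 21.5% of all counted. Over the more open peaks the median level was 5.95 and 7.72 CPM in members and 1.92 and 2.92 in the others, as the choice of peaks fixed. The nuclei with sums of 4 to 7, which were counted among the others, had a median of 3.73 and 4.24. In B lineage nuclei the median was 0.401 in library 1, against 1.52 over all peaks counted. In library 2, with 40 such nuclei, it was 0 over both.

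The nuclei rich in late granule RNA had a median of 6.03 and 5.71 CPM over the same peaks. They exceeded the members in both libraries at 125 peaks (32.6%) and fell below them in both at 183 (47.8%). Over all peaks counted the shares were 15.8% above and 59.1% below. The late granule and B lineage nuclei were also counted among the others. Their levels over the more open peaks depend in part on the choice of peaks and are a description.

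The consensus TTNNGCAAT of the C/EBP family stood in the central 300 bases of 78 of the 383 more open peaks (20.4%, 16.4 to 24.7), of 1.93% (0.931 to 3.53) of the less open peaks and of 3.81% of all. Away from gene starts the shares were 19.8% of 329 more open peaks and 4.1% of all. The peaks that hold it are shown by 120 bases, from 3 chosen after the motif counts were seen. These had the largest ratio in the weaker library among such peaks without an exon and with at least 100 counts in members per library. The choice did not cover all chromosomes, so peaks with larger ratios may lie elsewhere. Capitals mark the match, and the bases shown are those of the plus strand of GRCm38. The letters are matched on the opposite strand in the first and second peaks, and on the plus strand in the third.
Peak between genes, nearest to Dph5, chr3:115846219-115846338: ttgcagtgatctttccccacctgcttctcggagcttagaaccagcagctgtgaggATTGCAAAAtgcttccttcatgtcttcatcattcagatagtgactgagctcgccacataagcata
Peak in an intron of Ccdc170, chr10:4557157-4557276: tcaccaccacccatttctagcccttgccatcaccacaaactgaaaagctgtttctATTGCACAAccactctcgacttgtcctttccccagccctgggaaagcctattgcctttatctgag
Peak outside exons, chr15:4000661-4000780: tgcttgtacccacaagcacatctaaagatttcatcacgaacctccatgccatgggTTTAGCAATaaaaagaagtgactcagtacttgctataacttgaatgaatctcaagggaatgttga
The first, inside chr3:115845799-115846664, had 11.3 and 15 CPM in members, 3.22 and 4.88 in the others, and 12.1 and 11.4 in late granule nuclei. The second, inside chr10:4556774-4557623, had 13.9 and 12.3 in members and 4.16 and 4.18 in the others, but only 4.02 and 0.857 in late granule nuclei. The third, inside chr15:4000311-4001222, had 10.2 and 10.1 in members, 2.72 and 3.7 in the others and 2.01 and 5.14 in late granule nuclei. In B lineage nuclei of library 1 they stood at 0.16 to 0.32, while the 40 such nuclei of library 2 were too few to show a level. The first was about as open in late granule nuclei as in members while the second was not.

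The other motifs did not follow the C/EBP letters. PU.1 letters stood in 2.61% (1.26 to 4.75) of the more open peaks and 9.83% of all, and in 5.22% of the less open peaks. The EBF letters stood in 18.4% (15.1 to 22) of the less open peaks, 5.74% of all and 4.18% of the more open peaks. RUNX letters stood in 4.18% and 4.26% of the more and less open peaks and 2.32% of all, MYB letters in 5.22%, 4.26% and 3.42%, and GATA letters in 1.04%, 1.74% and 1.3%. Median GC content was 46.3% in the more open, 50% in the less open and 49% in all peaks, and its part in these shares was not tested.

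**Figure D5:**
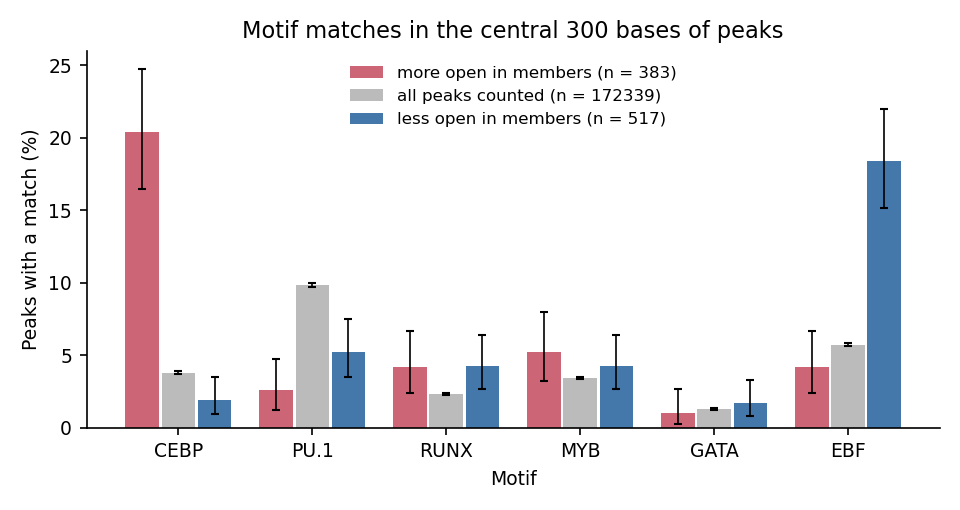
Percent of peaks whose central 300 bases hold a motif (y axis) for 6 motifs (x axis), in 383 peaks more open in members, 517 less open and all counted peaks with sequence, with exact 95% intervals. The C/EBP letters stand in 20.4% of the more open peaks against 3.81% of all, and the EBF letters in 18.4% of the less open peaks against 5.74%.

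The 10 largest peaks by the weaker ratio with at least 100 counts in members of each library lay away from gene starts. The first, chr13:52183388-52184314 and 337173 bases from the start of Gadd45g, the nearest coding gene, had 12.4 and 13.4 CPM in members against 2.47 and 4.24, a fold of 5.02 (3.68 to 6.78) and 3.16 (2.51 to 3.96). Late granule nuclei had 0 and 2.28 there. Another, chr6:52860969-52861847 in an intron of Jazf1, had 12.1 and 16.8 in members and 52.3 and 30.3 in late granule nuclei. One more, chr3:108099533-108100454 over an exon of Gnat2, lay in the region of Ampd2, 1 of the 15 leading genes in RNA, and gave folds of 3.23 (2.49 to 4.16) and 2.91 (2.39 to 3.53).

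Nuclei with markers of other lineages were set against the share of members among all kept nuclei, 7.91% and 10.9%. Of nuclei with 3 or more UMIs of a stem cell list, 3 of 114 in library 1 (2.63%, 0.546 to 7.5) and 0 of 25 in library 2 (0 to 13.7) were members. For the monocyte list the numbers were 4 of 51 (7.84%, 2.18 to 18.9) and 2 of 30 (6.67%, 0.818 to 22.1). For the erythroid list they were 0 of 28 (0 to 12.3) and 0 of 5 (0 to 52.2). With 8 or more UMIs of the B lineage list they were 5 of 647 (0.773%, 0.251 to 1.79) and 2 of 42 (4.76%, 0.582 to 16.2). Only the stem and B lineage lists of library 1 lay below the share of all kept nuclei beyond counting error.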

How the data were processed

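Single-nucleus RNA and ATAC libraries of Lin-cKit+ bone marrow cells were deposited by the authors as 1 matrix of raw counts (UMIs for 32272 genes, ATAC counts for 174339 peaks), and the processing notes name Cell Ranger ARC 2.0.0 and mouse build mm10. No normalization had been applied. Seurat 4.0.3 and Signac 1.3.0 are also named there. Members, lists and rules were chosen with earlier results of these data known.

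Counts were summed over members and over other kept nuclei in each library (Python 3.11.15, numpy 2.4.6, scipy 1.17.1, pandas 2.3.3). A gene was counted with at least 20 UMIs, and a peak with at least 40 counts, in members or others of each library. It was called when its ratio, with 1 CPM added to each side, was at least 2-fold in both. With 1 sample per group and no map from barcodes to samples, no test was run. CPM carry exact Poisson, shares Clopper-Pearson and folds conditional binomial intervals. ATAC intervals used count pairs, since 82.5% of nonzero entries were even. Comparators had 8 or more UMIs of their list (3 for stem, monocyte and erythroid, lowered after the counts were seen) and were no members. Named genes were the list members and the 15 largest and 10 smallest ratios with at least 50 UMIs. One of these genes is not reported here. The 2-fold call of genes was tested on simulated sums in which only well-counted genes were changed, by folds larger than 2. Smaller changes and changes in sparsely counted genes were not simulated, nor were the other steps. No doublet caller was run. Gene starts were those listed in the matrix. Alternatives covered the thresholds, scaling, depth and pseudocount. Total depth of members was 1064196 and 1702572 UMIs. Coordinates are 1-based.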

Additional observations from a re-analysis of the deposited data

How the results depend on the processing

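No paired analysis was possible because each label group had 1 sample and the 2 libraries of the matrix belong to no group. Replicates could not be left out for the same reason. Thinning, and the comparisons without nuclei just outside the threshold or without B lineage nuclei, were chosen after seeing the data. The cause of each change was not tested. Of the values of the member shares, gene and peak counts, C/EBP share and rule gene starts under the alternatives, 49 moved and 78 moved little.

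The share of members moved with the rule and with depth. In libraries 1 and 2 it became 18.7% and 24.3% at a minimum of 5 rule gene UMIs, and 2.25% and 4.84% at 12. It was 5.61% in each with no late granule UMI, and 10.3% and 19.9% with at least 500 genes. With a minimum of 0.5% of UMIs it was 17.4% and 31.3%, and after thinning 1.56% and 4.72%. With ATAC counts halved before the limits it was 9.29% in library 1. It was higher in library 2 under each of these except the limit of no late granule UMI, where it was 5.61% in both.

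Genes higher in members numbered 68 at a minimum of 12 rule gene UMIs, of which 30 were among the 41. They numbered 18 with a pseudocount of 10 CPM and 17 with at least 100 UMIs, where 82 and 135 genes were lower. Of the GMP markers, 5 were higher at the minimum of 12 and 5 without nuclei just outside the threshold. Over all genes counted, 68 of 10507 and 51 of 9608 were higher at these settings, and 17 of 5943 with at least 100 UMIs. Of the azurophil genes, 2 were higher at the minimum of 12 and 0 with at least 100 UMIs. Of the folding genes, 0 passed with CPM over all genes, where 41 of 10330 genes were higher. Among them 1 passed with no late granule UMI, the pseudocount of 10, at least 100 UMIs, without nuclei of other lists, and without B lineage nuclei. Over all genes, 50 of 10462 were higher with no late granule UMI and 18 of 10330 with the pseudocount of 10. Without nuclei of other lists 38 of 10184 were higher, and without B lineage nuclei 36 of 10195. Alternatives were tallied for 59 of the named genes and not for all of them. Of their 649 values, 603 moved little, 44 moved and 2 changed direction. These 2 were H2-Eb1 (log2 ratio 0.024 at the minimum of 12) and Ngp (0.13 against others with at most 4 late granule UMIs).

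More open peaks numbered 643 at the minimum of 12, 236 with no late granule UMI, 588 against others with at most 4 late granule UMIs, 749 among nuclei of 10000 to 30000 ATAC counts, 2189 per nucleus, 1261 without nuclei just outside the threshold and 202 with at least 200 counts. Of the 383, 148 to 383 were found again. The folds of the Mpo start became 1.55 in library 2 with no late granule UMI, 2.49 in library 2 per nucleus, and 4.40 and 2.43 without nuclei just outside the threshold. Those of the Elane start became 2.86 and 1.66 in nuclei of 10000 to 30000 ATAC counts, 2.52 in library 2 per nucleus, 2.92 and 2.22 without nuclei just outside the threshold, and 1.73 and 1.52 with peaks within 5 kb. Those of the Ctsg start became 3.69 in library 1 in nuclei of 10000 to 30000 ATAC counts, 2.38 in library 2 per nucleus and 3.59 in library 1 without nuclei just outside the threshold. All of them stayed above 1.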
